A study of Mus musculus with 16 samples.

Results

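Phox2a, Hand1, Hand2, Gata2, Gata3, Insm1, Isl1 and Sox11 are transcription factor genes of the sympathoadrenal lineage, the neural crest branch that gives the chromaffin cells of the adrenal medulla and the sympathetic neurons. They were found by their symbols among the probe sets of Affymetrix Mouse430_2 arrays, which measure transcripts with sets of short oligonucleotides. All 8 were among the 18193 genes measured, through 19 probe sets: 6 for Sox11, 3 for Hand2, 2 each for Hand1, Gata2, Insm1 and Isl1, and 1 each for Phox2a and Gata3. All 8 genes passed the filter on low signals, as did 18 of the 19 probe sets.

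The arrays carried RNA of whole mouse adrenal glands on a C57BL/6 background. Knockout (KO) glands carried an Sf1-Cre transgene and 2 floxed Dicer alleles (Dicer lox/lox), so that Dicer, which cuts microRNA precursors, is deleted where Sf1 is active, as in steroidogenic cells. Controls were littermates without Cre, which the labels call WT, and the Dicer alleles of each control are not stated in the sources used. Glands of 1 genotype were pooled within a litter, with 4 litters at embryonic day E15.5 and 4 at E16.5, so that there were 4 groups of 4 arrays: control and KO at each stage. The number of glands in a pool is not stated in the sources used. Values are log2 signals, on which a difference of 1 is a doubling.

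Chromaffin cells and sympathetic neurons arise from neural crest cells that migrate to the dorsal aorta and the adrenal anlage. Bone morphogenetic protein signals there switch on a set of transcription factors that turn each other on and keep each other active. This set brings about both neuronal genes and the enzymes that make noradrenaline. In the set, Phox2a and Isl1 are homeodomain proteins, Hand1 and Hand2 are basic helix-loop-helix proteins, Gata2, Gata3 and Insm1 are zinc finger proteins, and Sox11 is an HMG-box protein of the SoxC group.

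As Hand and Gata proteins are themselves members, the promoters of the set were searched for the E-box CANNTG, the motif of basic helix-loop-helix proteins, and for GATA, each on both strands, so that TATC also counts as GATA. RefSeq promoter windows (GRCm38.p6) were on hand for 6 of the 8 genes, without Hand1 and Insm1, and the 250 bases before each annotated start were used. The Hand2 and Sox11 windows each held 2 E-boxes and 2 GATA motifs, the Isl1 window 1 of each and the Phox2a window 0 E-boxes and 1 GATA. Those of Gata3 and of both Gata2 starts held 0 of either. The 4 windows with matches are printed 5′ to 3′ in the sense of the gene, with E-boxes and GATA or TATC in capitals; no E-box overlaps a GATA match.
Hand2 (chr8:57320733-57320982, plus strand): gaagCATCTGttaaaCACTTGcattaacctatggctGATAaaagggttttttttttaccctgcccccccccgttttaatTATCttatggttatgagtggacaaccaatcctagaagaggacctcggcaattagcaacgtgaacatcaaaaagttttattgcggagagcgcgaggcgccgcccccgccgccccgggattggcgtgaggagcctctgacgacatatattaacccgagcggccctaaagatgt
Sox11 (chr12:27342719-27342968, minus strand): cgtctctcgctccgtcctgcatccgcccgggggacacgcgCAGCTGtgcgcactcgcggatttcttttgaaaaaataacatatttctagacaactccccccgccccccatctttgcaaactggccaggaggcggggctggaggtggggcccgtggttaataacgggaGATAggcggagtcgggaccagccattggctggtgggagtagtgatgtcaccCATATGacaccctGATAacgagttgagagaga
Isl1 (chr13:116309689-116309938, minus strand): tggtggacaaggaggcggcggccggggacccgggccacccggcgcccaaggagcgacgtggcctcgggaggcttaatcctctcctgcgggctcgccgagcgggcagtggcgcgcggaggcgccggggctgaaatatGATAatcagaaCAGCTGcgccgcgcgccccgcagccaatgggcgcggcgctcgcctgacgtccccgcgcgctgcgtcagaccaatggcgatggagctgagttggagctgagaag
Phox2a (chr7:101818063-101818312, plus strand): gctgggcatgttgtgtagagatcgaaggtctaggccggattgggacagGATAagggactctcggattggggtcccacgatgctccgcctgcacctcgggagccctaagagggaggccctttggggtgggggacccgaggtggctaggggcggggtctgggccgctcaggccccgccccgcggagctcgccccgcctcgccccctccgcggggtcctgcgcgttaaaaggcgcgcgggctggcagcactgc
An E-box occurred in 66.2% and GATA in 53.6% of all 32851 promoter windows of this length, so that neither is particular to these genes. The matches describe the letters only, and binding was not measured here.

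Some facts of the arrays bear on small differences. The mean signal over all probe sets was 6.31 to 6.32 on the control arrays and 6.35 to 6.37 on those of KO glands, and the median difference between KO and control over all 13642 genes tested was 0.07 at E15.5 and 0.08 at E16.5. Control E16.5 replicate 2 stood apart, with a 3′ minus 5′ signal of 3.15 for Gapdh and beta-actin against 0.19 to 1.62 in the other 15 arrays. Dicer1 itself was at 8.002 to 8.36 in KO and 8.49 to 8.64 in controls at E15.5, and at 8.09 to 8.42 against 8.45 to 8.83 at E16.5, without overlap; whether its probe set covers the deleted exons was not checked here.

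The 8 genes were a little higher in KO than in control glands at both stages, and few of these differences stood clear of the spread between pools. At E15.5 the KO minus control difference was positive for 8 of 8, from 0.18 for Insm1 to 0.35 for Gata3, with a median of 0.22. None passed at an adjusted p under 0.05 in limma, where 5.86% of all genes did. Likewise 0 of 8 had an unadjusted p under 0.05, where 19% of genes did, and 0 of 8 had KO values that all lay above the control values, where 9.79% of genes did. At E16.5 the difference was again positive for 8 of 8, from 0.08 for Hand1 to 0.51 for Insm1, with a median of 0.20. Of these, 1 passed, Insm1, where 10.5% of all genes did in either direction and 6.99% did upward; 2 of 8 had an unadjusted p under 0.05, against 24% of genes. Among all genes tested 64.2% and 64.3% were higher in KO at E15.5 and E16.5. Centring each array on its 75th percentile turned Hand1 at E16.5 to -0.0033 and left the other signs at both stages as they were. Some signs rested on single arrays. Without control replicate 1 the E15.5 difference was -0.02 for Isl1 and -0.04 for Sox11. Without control replicate 2 the E16.5 difference was -0.07 for Isl1 and -0.12 for Phox2a. The 8 genes were read on the same arrays, so their signs are not 8 independent results. In pooled glands, a change in the number of cells of a type and a change in RNA per cell cannot be told apart.

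**Figure D1:**
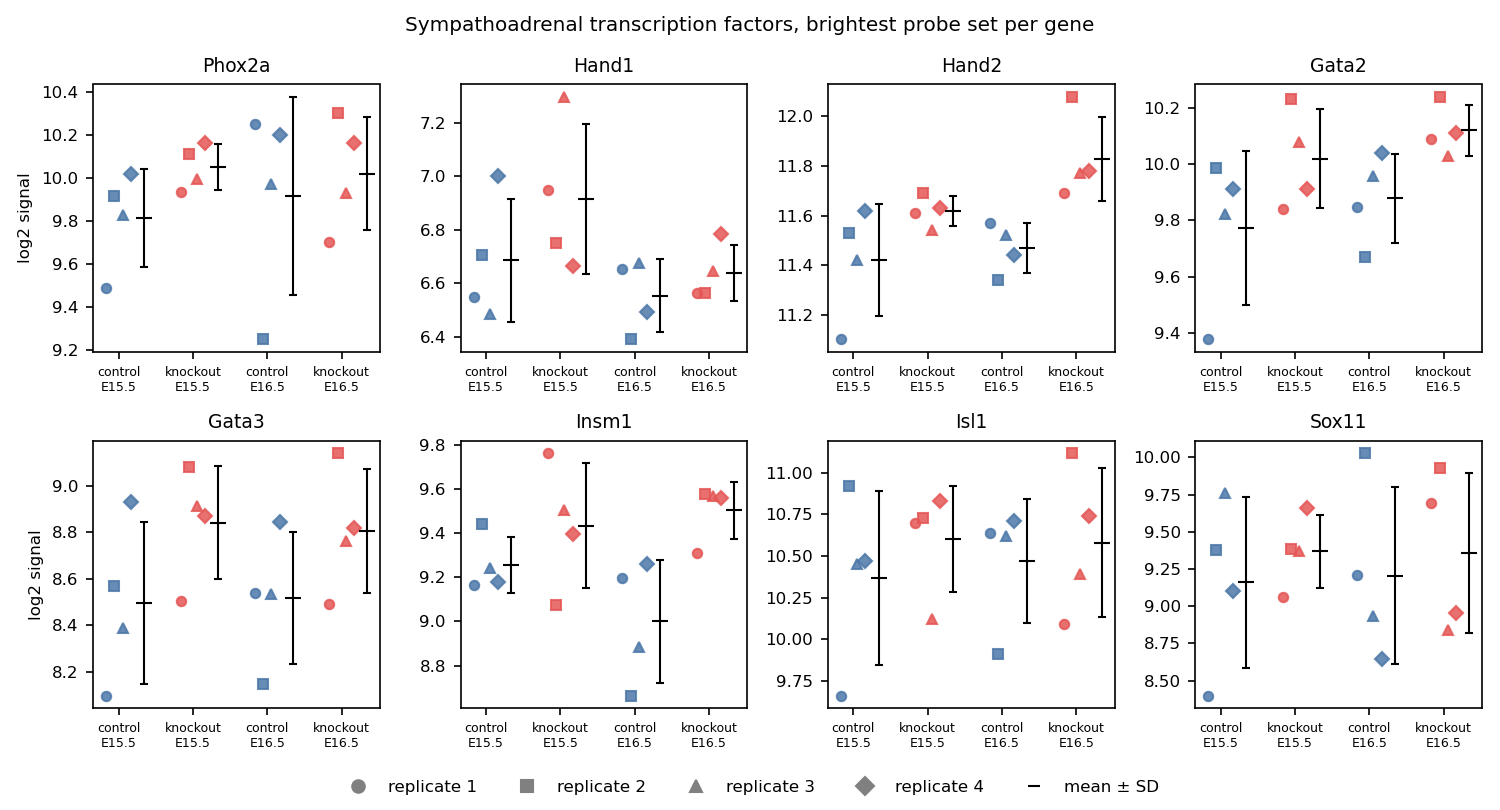
Log2 signal of the brightest probe set of each of the 8 genes on every array, with control arrays in blue, KO arrays in red, a symbol for each replicate number and bars for the mean ± SD of 4 pools; the axes are linear in log2 signal, differ between panels and do not start at 0. KO and control groups overlap in most panels, while at E16.5 the 4 KO values of Insm1 (9.31 to 9.58) and of Hand2 (11.69 to 12.08) lie above the 4 control values.

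Insm1 encodes a zinc finger protein that endocrine and chromaffin cells need for their differentiation. At E16.5 its log2 signal was 9.31, 9.58, 9.57 and 9.56 in the KO pools and 9.20, 8.66, 8.88 and 9.26 in the control pools, in order of replicate. All KO values lay above all control values, as they did for 10.4% of genes at this stage. Insm1 rose by 0.51 in KO (SE 0.15, 95% interval 0.19 to 0.82, adjusted p = 0.0412, n = 4 pools per group). At E15.5 the values were 9.77, 9.08, 9.51 and 9.40 in KO and 9.17, 9.44, 9.24 and 9.18 in controls, which overlap, with a difference of 0.18 (SE 0.15, adjusted p = 0.600).

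The Insm1 call at E16.5 lay close to the threshold. Leaving out 1 of the 8 arrays compared ended the call in 5 cases (adjusted p from 0.0260 to 0.104 over the 8), and the difference was 0.39 (adjusted p = 0.0927) without control replicate 2, the array that stood apart. It was also lost after quantile normalization (0.42, adjusted p = 0.0831) and after centring on the 75th percentile (0.42, adjusted p = 0.111). The call was lost as well when the difference had to exceed a genotype offset, 0.142 at E16.5 (adjusted p = 0.163). This offset is the median absolute difference of the dimmest 20% of probe sets, with a mean signal up to 4.04. An absolute value also counts the spread between pools, and the signed median difference of these probe sets was smaller, at 0.073. Insm1 was far brighter than these probe sets, and whether the offset applies to it was not tested. A second Insm1 probe set, 1421399_at, had the same direction with wide spread, with differences of 0.40 and 0.53 at E15.5 and E16.5 (adjusted p = 0.660 and 0.465). Its E16.5 control values were 7.75 to 8.09 in 3 pools and 6.01 in replicate 2, and without that replicate the difference was 0.06.

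Hand2, which sympathetic neurons need for their noradrenergic phenotype, came next. At E16.5 its values were 11.69, 12.08, 11.77 and 11.78 in KO and 11.57, 11.34, 11.52 and 11.44 in controls. The groups did not overlap, and the difference of 0.36 (SE 0.11, 95% interval 0.12 to 0.60) had an adjusted p of 0.0564, short of the threshold. At E15.5 the values were 11.61, 11.69, 11.54 and 11.63 in KO and 11.10, 11.53, 11.42 and 11.62 in controls, a difference of 0.20 (SE 0.11, adjusted p = 0.393), with control replicate 1 as the lowest. The 2 other Hand2 probe sets were dimmer. That of 1422221_at differed by 0.33 (adjusted p = 0.686) and -0.03 (adjusted p = 0.981), and the 0.33 turned to -0.11 without KO replicate 3. The third, 1443854_at, was below the filter on all 16 arrays and was not tested; it was listed at 4.85 to 5.18 in KO and 4.53 to 4.76 in controls at E16.5, and at 4.08 to 4.49 and 4.40 to 4.59 at E15.5.

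Hand1, the close relative of Hand2, gave different results for its 2 probe sets. The brighter one, 1417525_at, was at 6.66 to 7.30 in KO and 6.49 to 7.001 in controls at E15.5 (difference 0.23, SE 0.14, adjusted p = 0.427), and at 6.56 to 6.78 and 6.39 to 6.68 at E16.5 (0.08, adjusted p = 0.780). The KO and control values overlapped at both stages. In the dimmer one, 1448750_at, KO values were 5.001, 5.16, 5.71 and 5.18 at E15.5 against control values of 4.75, 4.81, 4.58 and 4.68. At E16.5 its KO values were 5.13, 5.03, 5.26 and 5.23, and its control values 4.64, 4.44, 4.68 and 4.54. No KO value fell within the control range at either stage, as for 9.05% and 9.19% of the probe sets tested.

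In a fit over all 24431 probe sets above the filter, 1448750_at differed by 0.56 (SE 0.13, 95% interval 0.28 to 0.83, adjusted p = 0.0188) at E15.5 and by 0.59 (SE 0.13, 95% interval 0.31 to 0.87, adjusted p = 0.0100) at E16.5. It entered this test through KO arrays alone. Its signal was above the 40th percentile of the array on 2 KO arrays at each stage and on 0 of the 8 control arrays. It thus had to be higher in KO to be tested. Neither its adjusted p nor its lack of overlap counts as support for a difference. A stricter filter left it out. Of the other 17 probe sets tested, 0 passed at either stage, where 5.08% and 8.17% of all probe sets did, and in this fit the Insm1 probe set that passed among genes had an adjusted p of 0.0517. The E15.5 value of 1448750_at fell short of the threshold without control replicate 3 (adjusted p = 0.0634) and when the fit held only the 2 groups compared (adjusted p = 0.0692). The genotype offset allowance left it with 0.113 as its E15.5 adjusted p and 0.0486 as that of E16.5. Its mean signal was at the 36.1st percentile of all probe sets. Dim probe sets differed by genotype more often than by day. Of the dimmest 20%, with a mean signal up to 4.04, an unadjusted p under 0.05 was found between genotypes for 31.7% (E15.5) and 28.3% (E16.5), and between days for 2.88% (controls) and 2.59% (KO). The part of this offset in the Hand1 difference was not tested beyond the allowance above.

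**Figure D2:**
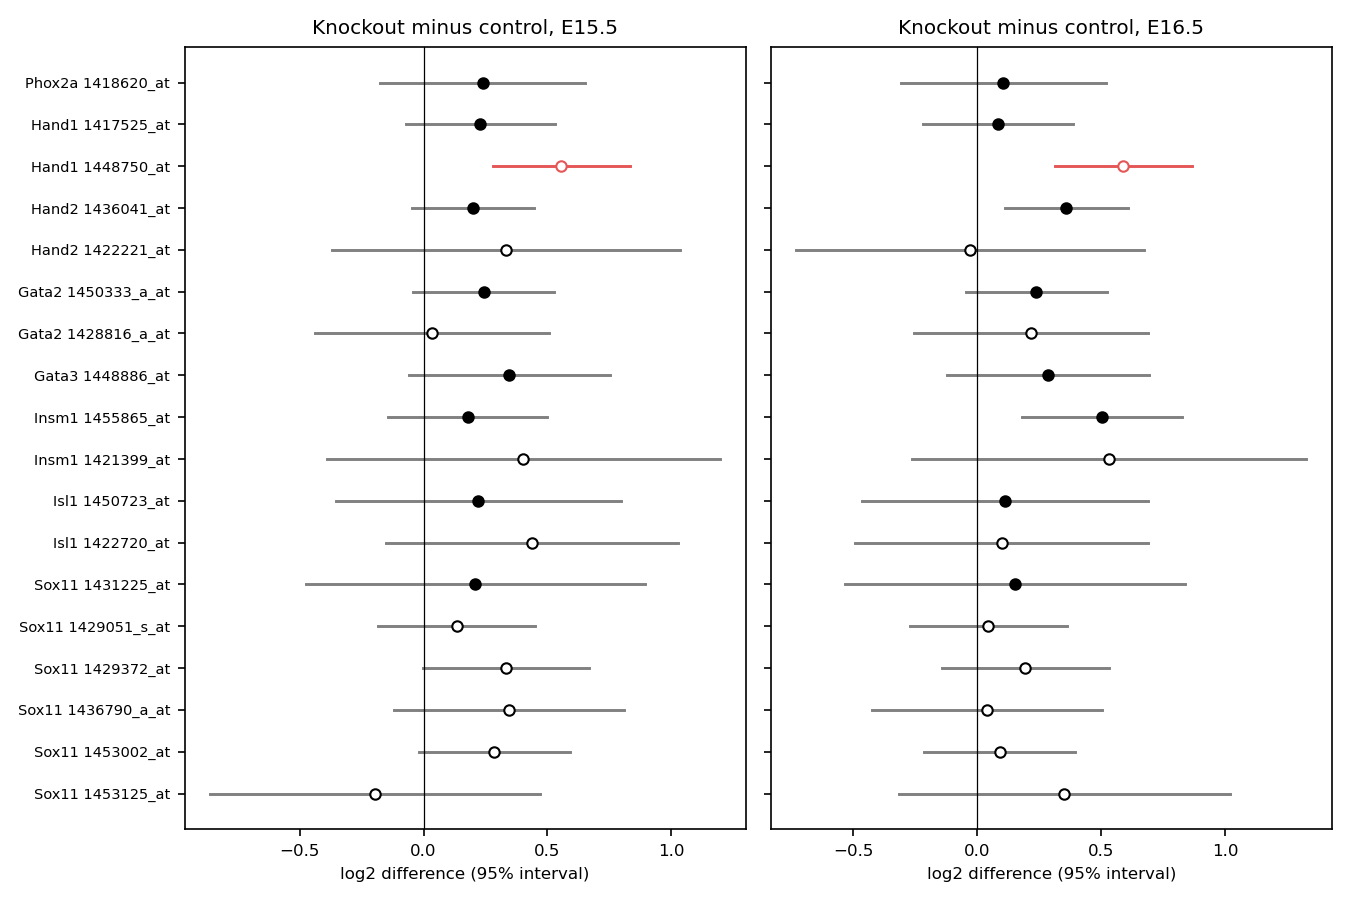
KO minus control difference in log2 signal for the 18 probe sets tested, at E15.5 and at E16.5, with 95% intervals from the fit over probe sets; filled circles are the brightest probe set of a gene, open circles the others, and red marks an adjusted p under 0.05. Hand1 1448750_at, in red, passed the signal filter only through KO arrays, so its p is not support for a difference; of the others, Sox11 1453125_at at E15.5 (-0.20) and Hand2 1422221_at at E16.5 (-0.03) are below 0.

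Gata2 and Gata3 encode zinc finger proteins that bind GATA motifs and are needed in sympathetic neurons, Gata3 for the expression of tyrosine hydroxylase. Gata2 values at E15.5 were 9.84, 10.23, 10.08 and 9.91 in KO and 9.38, 9.99, 9.82 and 9.91 in controls. At E16.5 they were 10.09, 10.24, 10.03 and 10.11 in KO and 9.85, 9.67, 9.96 and 10.04 in controls. The groups overlapped at both stages, at E16.5 through a single control value (10.04), and the differences of 0.24 (SE 0.13) at E15.5 and 0.24 (SE 0.13) at E16.5 had adjusted p of 0.353 and 0.296. The second Gata2 probe set, 1428816_a_at, differed by 0.03 at E15.5 (-0.05 under quantile normalization, -0.04 under centring on the 75th percentile) and by 0.22 at E16.5 (adjusted p = 0.966 and 0.654).

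Among the brightest probe sets of the 8 genes, that of Gata3 had the largest difference at E15.5. Its values were 8.50, 9.08, 8.91 and 8.87 in KO and 8.10, 8.57, 8.39 and 8.93 in controls, a difference of 0.35 (SE 0.19, 95% interval -0.05 to 0.75, adjusted p = 0.356). Control replicate 4 lay above 3 of the KO values, so the groups overlapped. At E16.5 Gata3 was at 8.49 to 9.14 in KO and 8.15 to 8.84 in controls, a difference of 0.29 (SE 0.19, adjusted p = 0.392).

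The homeodomain genes showed small differences and wide spread. Phox2a, which activates the dopamine beta-hydroxylase gene, was at 9.94, 10.11, 9.99 and 10.16 in KO and 9.49, 9.92, 9.83 and 10.02 in controls at E15.5. At E16.5 it was at 9.70, 10.30, 9.93 and 10.16 in KO and 10.25, 9.25, 9.97 and 10.20 in controls. The differences were 0.24 (SE 0.19, adjusted p = 0.575) and 0.11 (SE 0.19, adjusted p = 0.802). Without control replicate 2 the E16.5 difference of Phox2a was -0.12 (adjusted p = 0.679).

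Isl1, a LIM homeodomain gene that sympathetic neurons need for their survival and differentiation, was at 10.70, 10.73, 10.12 and 10.83 in KO and 9.66, 10.92, 10.45 and 10.47 in controls at E15.5. At E16.5 it was at 10.09, 11.12, 10.39 and 10.74 in KO and 10.64, 9.91, 10.62 and 10.71 in controls. The difference was 0.22 (SE 0.27, 95% interval -0.35 to 0.79, adjusted p = 0.743) at E15.5 and 0.11 (SE 0.27, 95% interval -0.45 to 0.68, adjusted p = 0.854) at E16.5. It was -0.02 at E15.5 without control replicate 1 and at E16.5 -0.07 without control replicate 2 or KO replicate 2, so that its direction rested on single arrays. The second Isl1 probe set differed by 0.44 (adjusted p = 0.466) and 0.10 (adjusted p = 0.896).

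Sox11, whose protein promotes the growth of early sympathetic neuroblasts, had the largest SE among the brightest probe sets of the 8 genes. Its brightest, 1431225_at, was at 9.06, 9.39, 9.37 and 9.66 in KO and 8.40, 9.38, 9.76 and 9.10 in controls at E15.5. At E16.5 it was at 9.69, 9.93, 8.84 and 8.96 in KO and 9.21, 10.03, 8.93 and 8.65 in controls. The differences were 0.21 (SE 0.32, 95% interval -0.47 to 0.88, adjusted p = 0.807) and 0.15 (SE 0.32, 95% interval -0.52 to 0.83, adjusted p = 0.835). Over the 6 Sox11 probe sets the KO minus control difference ran from -0.20 to 0.34 at E15.5, with 5 above 0, and from 0.04 to 0.35 at E16.5, with 6 above 0. The E15.5 difference of 1431225_at was -0.04 without control replicate 1, and that at E16.5 was -0.04 without KO replicate 2 and -0.03 without control replicate 4. None of the 6 passed at either stage, and 2 of the E16.5 differences turned below 0 under another scaling (1429051_s_at to -0.05 and 1436790_a_at to -0.04 after quantile normalization).

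**Figure D3:**
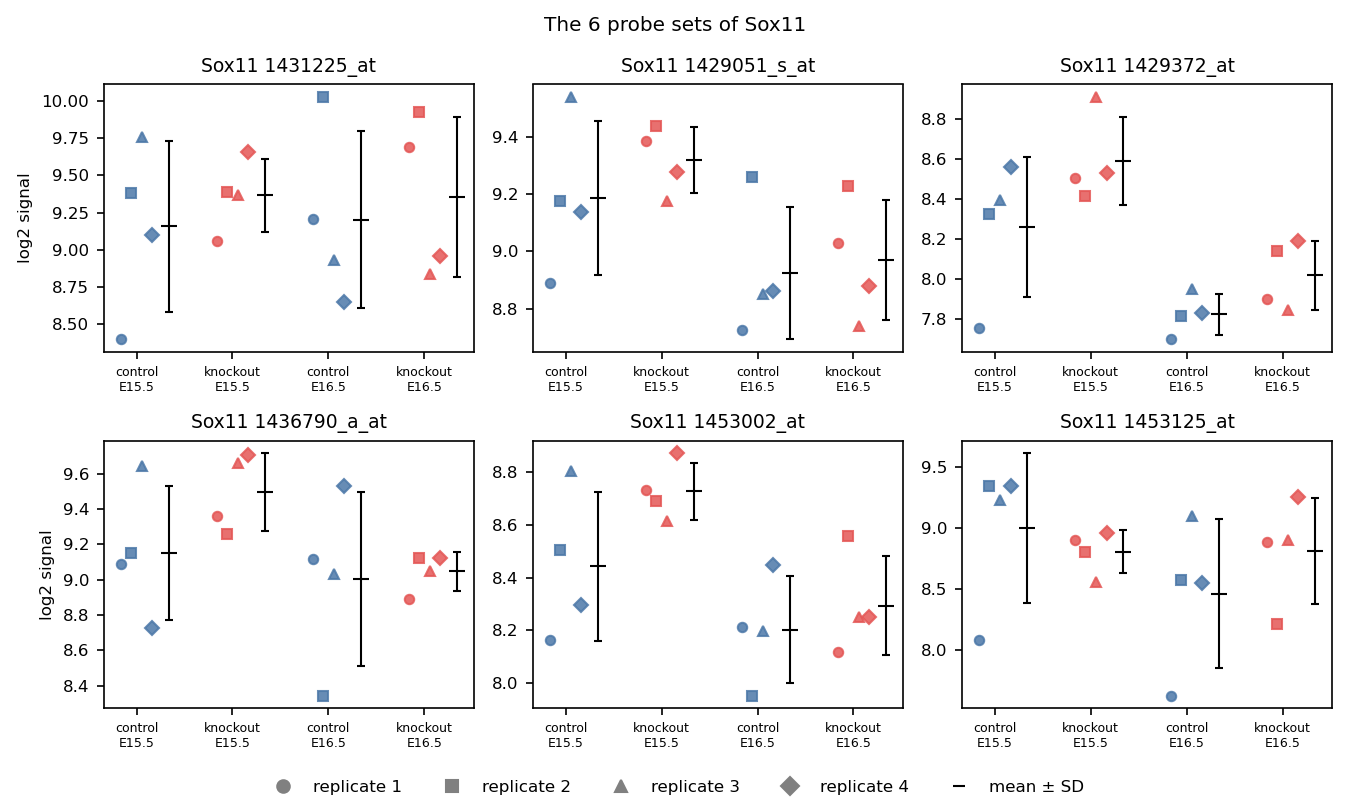
Log2 signal of the 6 Sox11 probe sets on every array, control in blue and KO in red, with mean ± SD of 4 pools per group; axes are linear in log2 signal, differ between panels and do not start at 0. In 1429372_at the KO pools run from 8.41 to 8.91 at E15.5 and from 7.84 to 8.19 at E16.5, while in 1431225_at and 1453125_at the stages overlap.

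Over the day from E15.5 to E16.5 the 8 genes showed no change past the threshold in either genotype. In controls the difference was positive for 6 and negative for 2, from -0.26 for Insm1 to 0.10 for Gata2, with a median of 0.05; 0 of 8 passed, where 0.0953% of all genes did, and 0 had an unadjusted p under 0.05, where 7.85% did. In KO glands it was positive for 3 and negative for 5, from -0.28 for Hand1 to 0.21 for Hand2, with a median of -0.01; 0 of 8 passed, where 0.902% of all genes did, and 0 had an unadjusted p under 0.05, where 9.51% did. The KO values of Hand2, 11.54 to 11.69 at E15.5 and 11.69 to 12.08 at E16.5, were the 1 case without overlap, as for 5.53% of genes that were higher at E16.5. Its difference was 0.21 (SE 0.11, adjusted p = 0.619). Without control E15.5 replicate 1, the day differences of all 6 genes positive in controls lay below 0, from -0.21 for Sox11 to -0.0041 for Phox2a. Insm1 differed by -0.26 (SE 0.15, adjusted p = 0.744) in controls and by 0.07 (SE 0.15, adjusted p = 0.958) in KO. Hand1 differed by -0.13 (adjusted p = 0.903) in controls and by -0.28 (SE 0.14, adjusted p = 0.580) in KO.

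The 6 Sox11 probe sets differed among themselves over this day. The most distinct one, 1429372_at, was at 8.50, 8.41, 8.91 and 8.53 in KO at E15.5 and at 7.90, 8.14, 7.84 and 8.19 at E16.5. No value of the later stage reached the earlier range. The difference was -0.57 (SE 0.16, 95% interval -0.91 to -0.24), which did not pass (adjusted p = 0.178), where 0.557% of all probe sets did. In controls it was -0.44 (SE 0.16, adjusted p = 0.536), with values of 7.75 to 8.56 at E15.5 and 7.70 to 7.95 at E16.5. In KO 3 of the 6 Sox11 probe sets lay lower at E16.5 without overlap (1429372_at, 1436790_a_at and 1453002_at, with differences of -0.57, -0.45 and -0.43), as did 2.07% of all probe sets. Next, 1429051_s_at differed by -0.35 in KO, while 1431225_at and 1453125_at differed by -0.01 and 0.01. The order was another one in controls, where 1453125_at had the largest difference (-0.54, SE 0.31). There 1429051_s_at differed by -0.26, 1453002_at by -0.24, 1436790_a_at by -0.15 and 1431225_at by 0.04, and none passed. These probe sets share a gene and the same arrays and are not independent measurements of it, and where each lies in the transcript is not stated in the sources used.

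The effect of the knockout did not differ detectably between the stages for any of the 8 genes. The difference of the KO effect between E16.5 and E15.5 ran from -0.14 for Hand1 to 0.33 for Insm1, with 0 of 8 passing and 0 at an unadjusted p under 0.05. Over all genes 0 (0%) passed this test in limma and 258 had an unadjusted p under 0.05. When limma weighted the arrays by their quality, 6 passed. Those weights were 10.37 for control E16.5 replicate 3 and 0.64, 0.19 and 0.49 for replicates 1, 2 and 4 of its group. The weighted mean of that group rested largely on replicate 3. The Insm1 value of 0.33 had an SE of 0.21 and an adjusted p of 1.00.

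On some arrays most of the 8 genes lay at an end of their group. The share of all genes that did so was not counted, so whether this is particular to the 8 is not known. Control E15.5 replicate 1 was the lowest of its group for 7 of 8 genes, with Hand1 as the exception, and control E16.5 replicate 2 for 7 of 8, where Sox11 was instead the highest at 10.03. Among the E16.5 KO arrays, replicate 2 was the highest for 7 of 8 genes and replicate 1 the lowest for 6. The mean over 4 sympathetic neuron markers (Prph, Stmn2, Elavl4 and Npy) was also lowest on control E15.5 replicate 1 (9.36) and, within its group, on control E16.5 replicate 2 (9.92). The chromaffin marker mean was not lowest on control E15.5 replicate 1 (10.84, against 10.63 on replicate 3). Control E16.5 replicate 2 was the lowest of its group for chromaffin (10.62), cortex (12.49), endothelium (8.10) and macrophage (7.68) markers as well. It was not so for Schwann cell precursor, capsule or erythroid markers. The part of these markers and of that array's 3′ signal in the differences was not tested. Without control E16.5 replicate 2 the E16.5 differences were Hand2 0.32, Sox11 0.43, Insm1 0.39, Gata2 0.17, Gata3 0.16, Hand1 0.03, Isl1 -0.07 and Phox2a -0.12, and 0 of 8 passed.

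**Figure D4:**
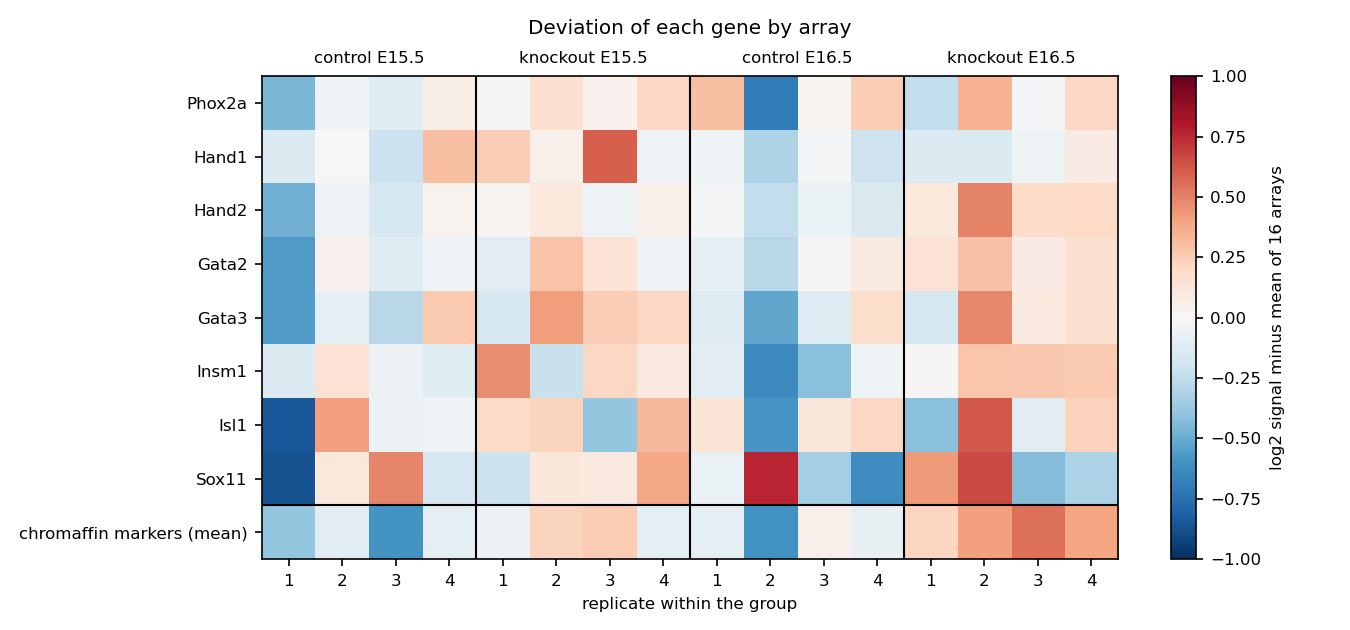
Deviation of each gene's log2 signal from its mean over the 16 arrays, 1 column per array in 4 groups, with the mean over 6 chromaffin cell markers in the lowest row; blue is below and red above the mean. Control E15.5 replicate 1 is blue for 8 of 8 genes and control E16.5 replicate 2 for 7 of 8, while KO E16.5 replicate 2 is red for 7 of 8.

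Across the 16 arrays the pairs of members differed in how far they moved together. Pearson's r over the 28 pairs ran from -0.17 (Hand1 with Sox11) to 0.84 (Gata2 with Gata3), with a median of 0.42, and Hand2 with Gata2 (0.83), Phox2a with Isl1 (0.82) and Phox2a with Gata3 (0.81) were the next highest. These are descriptions over arrays that share genotype, stage and the low arrays above. Among all other genes tested, those most like a member over the 16 arrays were Rtn1 (0.95) and Gap43 (0.94) for Phox2a, Rufy3 (0.95) and Ctnna2 (0.94) for Isl1, and Fkbp1b (0.94) and Ptprn2 (0.92) for Hand2. For Gata2 they were Cers4 (0.93) and Nefh (0.88), for Gata3 Tub (0.90) and Garnl3 (0.89), and for Hand1 Ppif and Kat7 (0.92 each). For Insm1 they were Phtf1 and Slc38a4 (0.86 each), and for Sox11 Ipmk (0.90) and Gsdme (0.89). The values for deviations from the group means were near these for Phox2a with Gap43 (0.96) and Isl1 with Ctnna2 (0.97), and lower for Insm1 with Phtf1 (0.73).

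Other genes, listed for the lineage or as partners of its factors, were measured on the same arrays. The counts of 5 lists are read against the shares over all genes, 5.86% at E15.5 and 10.5% (6.99% upward) at E16.5 for passing, and 19% and 24% for an unadjusted p under 0.05. Of 9 catecholamine genes, 0 passed at E15.5 and 2 rose in KO at E16.5: Slc18a1, the vesicular monoamine transporter of chromaffin cells (0.50, SE 0.13, adjusted p = 0.0210), and Dbh, the enzyme that makes noradrenaline (0.36, SE 0.11, adjusted p = 0.0453). The list's median was 0.28 and 0.33 at the 2 stages, against 0.07 and 0.08 over all genes. Pnmt, which makes adrenaline, differed by 0.96 (SE 0.42, adjusted p = 0.171) and Th, the first enzyme of the pathway, by 0.50 (adjusted p = 0.252) at E16.5. Of 8 granin and secretion genes, 0 passed at E15.5 and 2 rose at E16.5: Chga, the granule protein chromogranin A (0.69, SE 0.15, adjusted p = 0.00849), and Scg2, secretogranin II (0.61, SE 0.18, adjusted p = 0.0446). Chga was at 12.37 to 12.66 in KO and 11.72 to 11.98 in controls, and its call held under all alternatives run. The Dbh call was lost in each of the 8 fits without 1 array, that of Scg2 in 6 and that of Slc18a1 in 2. A stricter filter (adjusted p = 0.0539 for Dbh and 0.0528 for Scg2) and centring on the 75th percentile (0.179 and 0.0764) ended both calls. Dbh was also lost after quantile normalization (adjusted p = 0.104) and with the mean of all probe sets per gene (0.163). Scg2 was lost with only the groups compared (adjusted p = 0.0797). With the genotype offset of dim probe sets allowed for, the calls of Dbh, Scg2 and Slc18a1 were all lost. Those genes are brighter than the dim probe sets, and whether the offset applies to them was not tested.

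Among 13 tested genes listed as other regulators, 0 passed at E15.5. At E16.5 1 rose, the homeodomain gene Prrxl1 (0.56, SE 0.15, adjusted p = 0.0242). That Prrxl1 acts in this lineage was not shown here. Its call was lost in 3 of the 8 fits without 1 array. It was also lost with arrays centred on the 75th percentile (adjusted p = 0.0706) and with the genotype offset allowed for (adjusted p = 0.104). Insm2, the relative of Insm1, differed by 0.50 (adjusted p = 0.120) and 0.57 (adjusted p = 0.0508). Of 19 partners and paralogs of the Gata and Hand factors, 0 passed at either stage, and 2 (E15.5) and 5 (E16.5) had an unadjusted p under 0.05, near or below the shares over all genes. Lmo1, a LIM-only protein, differed by 0.73 (adjusted p = 0.139) and 0.71 (adjusted p = 0.112), Tal1, a helix-loop-helix partner of Gata factors, by 0.31 (adjusted p = 0.457) and 0.61 (adjusted p = 0.0630), and Zfpm2, a Gata cofactor, by 0.38 (adjusted p = 0.124) and 0.43 (adjusted p = 0.0521). Of 19 neuronal and ganglion genes 0 passed at either stage, and the unadjusted p was under 0.05 for 2 (E15.5) and 1 (E16.5), below the shares over all genes, with a median of 0.40 at E15.5 and 0.08 at E16.5. The 2 at E15.5 lay on opposite sides: the neurofilament gene Nefl at 0.58 (adjusted p = 0.248) and the neurotrophin receptor gene Ntrk3 at -0.50 (adjusted p = 0.108). The largest differences were those of the neuronal intermediate filament genes Prph (0.67 at E15.5 and -0.10 at E16.5) and Nefm (0.60 and 0.14). In none of the 5 lists did a gene pass for the day in either genotype or for the difference between the stages.

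Markers of cell types in the pools were read on the same arrays as the 8 genes. The 6 chromaffin markers are also in the catecholamine and granin lists. Their mean log2 signal was 10.63 to 11.13 in controls and 11.14 to 11.48 in KO at E15.5. At E16.5 it was 10.62 to 11.28 and 11.44 to 11.78, without overlap at either stage. At E15.5 the groups all but touched, at 11.13 and 11.14, where the median KO minus control difference over all genes was 0.07. Whether they stay apart under another scaling was not tested. The mean of 6 cortex markers was 12.38 to 12.95 in controls and 12.17 to 12.78 in KO at E15.5. At E16.5 it was 12.49 to 12.85 and 12.00 to 12.45. Macrophage markers (5) were at 7.53 to 7.88 in controls and 8.24 to 8.81 in KO at E15.5. At E16.5 they were at 7.68 to 8.48 and 9.10 to 9.53. The 4 markers of Schwann cell precursors were at 8.49 to 8.71 and 8.62 to 8.77, then at 8.56 to 8.68 and 8.80 to 9.21. Macrophage values did not overlap at either stage. The list means of the cortex (lower in KO) and of Schwann cell precursors (higher in KO) overlapped at E15.5 only. Neither list moved as a whole. Group means of Cyp21a1, Mc2r, Hsd3b1 and Cyp11a1 were lower in KO at both stages. That of Nr5a1 was higher at both (11.43 against 10.87 at E15.5). Star was at 13.59 against 13.39 at E15.5 and at 13.57 in both genotypes at E16.5. At E16.5 Foxd3 was at 7.009 in KO and 6.989 in controls, while Sox10, Erbb3 and Fabp7 were higher in KO. The 4 sympathetic neuron markers overlapped, at 9.36 to 10.58 and 10.39 to 11.09 at E15.5 and 9.92 to 11.05 and 10.37 to 11.43 at E16.5. Of the other cell types that use Gata or Hand genes, mast cells had 2 of 4 markers and T cells 1 of 2 above the filter, with means of 5.07 to 5.69 and 4.33 to 4.67 over all arrays, and 5 erythroid markers were at 8.15 to 8.81 at E15.5 and 5.93 to 7.84 at E16.5. Their part in the results was not tested.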

How the data were processed

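The log2 signals of 45101 probe sets on 16 arrays were deposited by the authors in normalized form. RMA and limma are named in the submitters' processing notes; their versions and whether all arrays were normalized in 1 run are not given in the sources used here. RMA compresses changes of dim probe sets. The deposited values were used as they were. Gene names came from the platform annotation, updated by gene identifier for 34741 of the 34945 probe sets with 1 symbol. The brightest probe set stood for each gene and was tested if 4 or more arrays placed it above their 40th percentile (13642 genes); a second fit held 24431 probe sets. limma 3.58.1 (in R 4.3.3, with data.table at version 1.17.8) fitted a mean for each of the 4 groups to all 16 arrays, moderated by eBayes, two-sided, with Benjamini-Hochberg adjustment over all genes or probe sets tested; the fit was tested on simulated data. Intervals are at 95%. The number of arrays limits the precision, and p-values measure the spread between pools of a group, which came from separate litters. KO and control pools of a stage came from the same litters, but the labels tie no pools to each other, so the fit does not pair them. The members and gene lists were chosen with earlier results of these data known. Named beside all 8 members were the 3 genes most like each, of which up to 2 are printed, and from each list the genes that passed and up to 3 of those with the largest change in a comparison; Ntrk3 was named after its values were seen.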

Additional observations from a re-analysis of the deposited data

Results flagged for a closer look

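Of 76 groups of 4 arrays (19 probe sets in 4 groups), 6 held an array whose gap to the nearest other took more of the group's range than a limit that chance passes in about 1 of 20 groups. Control E16.5 replicate 2 was low for both Insm1 1421399_at (6.01, against 7.75 to 8.09 in the other 3) and Isl1 1450723_at (9.91, against 10.62 to 10.71). Control E15.5 replicate 1 was low for Sox11 1453125_at (8.08, against 9.24 to 9.35). KO E16.5 replicate 1 was low for Insm1 1455865_at (9.31, against 9.56 to 9.58). In the dim Hand2 probe set 1443854_at, control E16.5 replicate 3 was high (4.76, against 4.53 to 4.54), as was KO E16.5 replicate 1 (5.18, against 4.85 to 4.90).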

How the results depend on the processing

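No member gene passed at E15.5, for the day in either genotype or for the difference between the stages under any alternative run. With array weights, the control E16.5 group rested largely on its replicate 3 (weight 10.37). The median difference of all genes tested between KO and control, 0.07 and 0.08 as deposited, was 0.02 and 0.02 after quantile normalization and -0.0079 and -0.0082 with arrays centred on the 75th percentile. The count of members passing at E16.5, 1, became 2 without the filter and with array weights, and 0 after quantile normalization, centring on the 75th percentile, the fit of only the groups compared, the mean of all probe sets per gene or the genotype offset allowed for; it was 0 to 1 with an array left out. The count of member probe sets passing at E15.5, 1, became 0 with a stricter filter (60th percentile on 8 arrays), only the groups compared or the offset (0 to 1 with an array left out). At E16.5, 1 became 3 without the filter and with array weights and 0 with the stricter filter (1 to 2). At both stages the 1 was Hand1 1448750_at, which entered the test through KO arrays alone, so it is not support for a difference. For the day in KO 0 became 1 without the filter. Of the list genes 5 passed at E16.5: 10 without the filter, 3 with the stricter filter, 2 centred on the 75th percentile, 20 with array weights, 1 with the offset, and 1 to 6 with an array left out. At E15.5 0 became 1 without the filter, with array weights and with only the groups compared (0 to 2). For the day in KO 0 became 1 after quantile normalization and with only the groups compared and 2 with array weights, and for the day in controls 0 became 7 with array weights.

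Same-numbered KO and control pools deviated from their group means with correlations of -0.39 to 0.39 at E15.5 and -0.20 to 0.45 at E16.5. Of 4 pools, 2 (E15.5) and 1 (E16.5) correlated best with their own number. So few pools cannot show whether a shared number marks a shared litter. With the replicate number as a block, 0 members passed at E16.5 (Insm1 adjusted p = 0.0952) and 0 member probe sets at E15.5 (Hand1 1448750_at adjusted p = 0.0576). The calls of Dbh (adjusted p = 0.102) and Prrxl1 (adjusted p = 0.0633) at E16.5 were lost with the block as well. KO and control pools shared litters, which the fit without the block does not use.

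Of all genes, 800 passed at E15.5 (1688 without the filter, 362 with the stricter one, 1350 with array weights, 366 with the offset) and 1439 at E16.5 (2355, 813, 4938 and 624, and 817 with only the groups compared). For the day 13 passed in controls (7 with the stricter filter, 1102 with array weights, 0 with only the groups compared, 7 with the mean of probe sets) and 123 in KO (58 with the stricter filter, 435 with array weights, 73 with only the groups compared). With an array left out, the counts were 588 to 666 at E15.5, 935 (without KO replicate 3) to 1705 (without control replicate 2) at E16.5, 0 (without control E15.5 replicate 1, 2 or 3) to 19 (without its replicate 4) for the day in controls, and 53 (without KO E16.5 replicate 3) to 146 (without KO E15.5 replicate 4) for the day in KO.

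Signs turned in 28 results, 0 of them past the threshold in either setting. Under quantile normalization these were Gata2 1428816_a_at at E15.5 (-0.045), Sox11 1429051_s_at (-0.047) and 1436790_a_at (-0.042) at E16.5 and Isl1 over the day in KO (0.011). Centred on the 75th percentile they were Gata2 1428816_a_at at E15.5 (-0.043), Hand1 (-0.0033), Sox11 1429051_s_at (-0.043) and 1436790_a_at (-0.047) at E16.5, and Sox11 1453125_at over the day in KO (-0.00049). With array weights they were Gata2 1428816_a_at (-0.020), Isl1 1422720_at (-0.025) and Isl1 (-0.081) at E16.5, and over the day in controls Hand1 (0.034), Sox11 1453125_at (0.022) and Sox11 (-0.21). With the mean of all probe sets they were Insm1 (-0.14) and Isl1 (0.019) over the day in KO and Sox11 over the day in controls (-0.26). With an array left out, KO minus control at E15.5 ran from -0.22 to 0.19 for Gata2 1428816_a_at, -0.11 to 0.54 for Hand2 1422221_at, -0.017 to 0.40 for Isl1 and -0.044 to 0.41 for Sox11. At E16.5 it ran from -0.12 to 0.078 for Hand2 1422221_at, -0.17 to 0.26 for Isl1 1422720_at, -0.072 to 0.28 for Isl1, -0.12 to 0.22 for Phox2a, -0.042 to 0.16 for Sox11 1429051_s_at, -0.18 to 0.22 for Sox11 1436790_a_at and -0.039 to 0.43 for Sox11. The day in controls ran from -0.028 to 0.17 for Gata2, -0.11 to 0.16 for Gata3, -0.054 to 0.12 for Hand2, -0.14 to 0.28 for Isl1, -0.0064 to 0.33 for Phox2a, -0.32 to 0.073 for Sox11 1436790_a_at and -0.23 to 0.24 for Sox11. The day in KO ran from -0.15 to 0.065 for Gata3, -0.050 to 0.18 for Insm1, -0.19 to 0.15 for Isl1, -0.12 to 0.078 for Phox2a, -0.14 to 0.21 for Sox11 1453125_at and -0.20 to 0.16 for Sox11. The cause of these turns was not tested. Signal over background limits Hand1 1448750_at and Hand2 1443854_at, the dimmest of the set.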
